A study of Mus musculus with 5 samples.

Results

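The genes described here are 10 genes of mitochondrial fusion, fission and mitophagy, chosen by name: Mfn1, Mfn2, Opa1, Dnm1l, Fis1, Mff, Pink1, Bnip3, Bnip3l and Fundc1. All 10 were found among the 35275 genes of the expression table, and all 10 passed the filter on low values, a mean of 1 FPKM or more, as did 10710 genes in all. FPKM scales the reads of a gene to its length and to the library total. The RNA came from gastrocnemius, a calf muscle made mainly of fast fibres, of female mice of the NSG strain, which lacks mature lymphocytes, aged 12 weeks and with their genotype given as wild type. Every mouse had been treated with extracellular vesicles (EVs) from MCF-10A/miR122 cells, which are cells of the human non-tumorigenic breast line MCF-10A whose label names the liver microRNA miR-122. The vesicles were given into the tail vein 10 times, 2 times a week for 5 weeks at about 10 µg each, and the muscle was collected 2 days after the last dose. The 5 samples form 1 group with no untreated or other-vesicle group to set beside it, so the values describe treated muscle and show no effect of the vesicles. The labels number the samples 1 to 5 without saying that each is a separate animal. Each SD and p-value therefore refers only to these samples, and the spread between them may be in part technical.

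Mitochondria of muscle fibres join and divide continuously. Fusion of the outer membrane is carried out by the mitofusins and fusion of the inner membrane by Opa1, while fission is carried out by the dynamin-related GTPase Dnm1l (Drp1), which adaptors recruit to the outer membrane. Damaged or surplus mitochondria are delivered to autophagosomes by mitophagy, either through a ubiquitin signal that the kinase Pink1 sets off or through receptors in the outer membrane that bind the autophagosome protein LC3 directly, such as Bnip3, Bnip3l and Fundc1. In skeletal muscle these genes are studied for their part in endurance, ageing and wasting.

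The libraries held 16674504 to 25407988 reads, and the members had between 372 reads (Fundc1 in library 2) and 29256 reads (Pink1 in library 4) in a library. Fast fibre markers such as Myh4 summed to 46648 to 75575 FPKM over 7 genes, while 6 lymphocyte markers summed to 0 to 0.380 FPKM, with Ncr1 listed at 0 in all 5 libraries. Library 2 had the highest slow fibre markers, 3979 FPKM summed over 7 genes against 1209 to 1781 in the others. Library 3 had the highest macrophage, erythroid and regenerating fibre markers. Scaling of the libraries mattered for the direction of small deviations. Median-of-ratios scaling, which sets the median ratio over genes to be equal between libraries, raised the values of library 4 by 0.16 and those of library 5 by 0.10 on the log2 scale, and changed those of libraries 1, 2 and 3 by -0.06, -0.10 and -0.09.

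Pink1 was the most abundant of the 10 genes and Fundc1 the least abundant, at 438 ± 64.1 and 11.7 ± 1.25 FPKM (SD, n = 5). The order by mean level was Pink1, Mfn2, Fis1, Bnip3, Mfn1, Bnip3l, Dnm1l, Opa1, Mff and Fundc1. Among the 10710 genes tested, Pink1 ranked 103rd by mean level, Mfn2 327th and Fundc1 3413th. Pink1 alone made up 46.8% to 56.0% of the summed FPKM of the 10 genes. Of the 9 pairs of neighbours in this order, 6 kept it in all 5 libraries, and 3 (Fis1 and Bnip3, Bnip3l and Dnm1l, Opa1 and Mff) changed places in 1 library each.

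**Figure D1:**
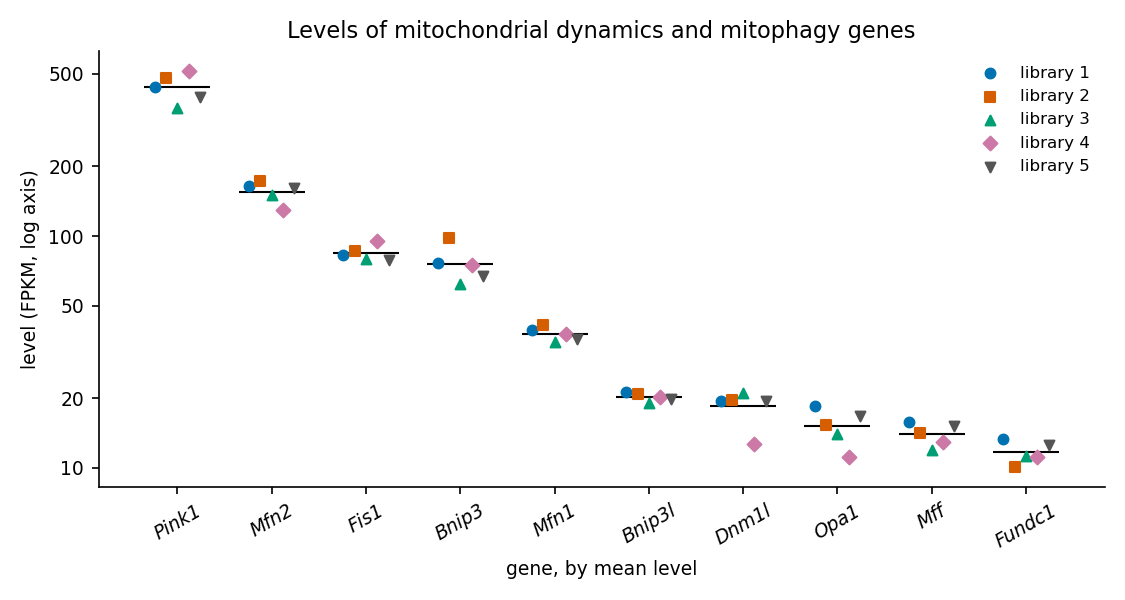
Level of each of the 10 genes in FPKM (log axis), with 1 point per library and a black line at the mean of the 5 libraries. Pink1 lies between 356 and 517 FPKM, above Mfn2 in every library, and the 5 genes at the right lie between 10.1 and 21.2 FPKM.

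Promoter sequences are shown for the 3 members whose FPKM spread most between libraries, Opa1, Bnip3 and Dnm1l. RefSeq windows on GRCm38.p6, from 250 bases before to 50 after the RefSeq start, were matched for 9 of 10 members, Bnip3l having no entry. Capitals mark matches on either strand to ACGTG or GCGTG, the core letters bound by hypoxia-inducible factors, and to the palindromic consensus site of the factor NRF1, which is the run of capitals in the Opa1 window.
Bnip3, chr7:138909457-138909756, minus strand: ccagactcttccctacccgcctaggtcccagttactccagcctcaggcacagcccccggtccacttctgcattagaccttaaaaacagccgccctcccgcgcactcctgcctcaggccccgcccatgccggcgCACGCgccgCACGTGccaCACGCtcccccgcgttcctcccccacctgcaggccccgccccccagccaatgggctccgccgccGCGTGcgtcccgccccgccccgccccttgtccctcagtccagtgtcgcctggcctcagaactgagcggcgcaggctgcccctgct
Opa1, chr16:29579084-29579383, plus strand: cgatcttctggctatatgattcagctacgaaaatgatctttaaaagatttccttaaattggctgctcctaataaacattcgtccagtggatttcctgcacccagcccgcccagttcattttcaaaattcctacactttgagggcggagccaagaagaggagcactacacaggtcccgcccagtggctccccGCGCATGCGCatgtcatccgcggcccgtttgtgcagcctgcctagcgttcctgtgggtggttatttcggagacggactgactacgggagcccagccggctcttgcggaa
Dnm1l, chr16:16358982-16359281, minus strand: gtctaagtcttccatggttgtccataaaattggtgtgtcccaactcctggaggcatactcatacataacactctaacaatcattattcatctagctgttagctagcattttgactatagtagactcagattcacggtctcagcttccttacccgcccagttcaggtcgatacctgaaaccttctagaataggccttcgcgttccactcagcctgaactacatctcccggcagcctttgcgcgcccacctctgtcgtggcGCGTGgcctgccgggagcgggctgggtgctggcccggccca
The Bnip3 window held ACGTG on both strands at 1 palindrome whose first bases lie 108 and 107 bases before the start, and GCGTG at 117, 99 and 35 bases before it. ACGTG was found in 19.6% of all 32851 windows and in 2 of 9 member windows (Bnip3 and Mfn2), and GCGTG in 32.4% and in 5 of 9. Opa1 was the 1 member window of 9 with the NRF1 palindrome, 59 bases before its start, a match found in 0.971% of all windows. Dnm1l had 1 GCGTG, starting 9 bases after its RefSeq start at 16359031. In the GENCODE annotation Dnm1l, on the minus strand, begins at 16358959, so its whole window lies before that start. The ERR half-site AAGGTCA (4.72% of all windows) and the FoxO site GTAAACA (3.65%) were in 0 of 9. A match is a description of the letters and not evidence of binding.

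The outer membrane fusion gene Mfn2 (ENSMUSG00000029020, chromosome 4, 147873599 to 147904704, minus strand, GRCm38) was about 4 times as abundant as its paralog Mfn1. Mfn2 was at 164, 173, 149.8, 129.6 and 161 FPKM in libraries 1 to 5, with a mean of 155 ± 16.6 (SD, n = 5). Library 4 was the low one and the other 4 lay within a range of 149.8 to 173. Mfn1 (ENSMUSG00000027668, chromosome 3, 32529465 to 32579239, plus strand) was at 39.4, 41.2, 35.01, 38.0 and 36.1 FPKM, with a mean of 37.9 ± 2.48. Its values were close together, and every value of Mfn1 lay below every value of Mfn2. The ratio of Mfn2 to Mfn1 ran from 3.41-fold in library 4 to 4.46-fold in library 5, with a mean log2 ratio of 2.0 ± 0.15 on the log2(FPKM + 1) scale (p = 0.0625, exact two-sided sign-flip permutation test, the smallest p that 5 samples allow; 0.0804 after Benjamini-Hochberg adjustment over 18 pairs). Mfn2 and Mfn1 encode similar proteins, and no source used here gives the treatment of reads that match more than 1 gene.

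Opa1 (ENSMUSG00000038084, chromosome 16, 29579334 to 29654884, plus strand), whose product fuses the inner membrane and holds the cristae together, was at 18.5, 15.2, 14.0, 11.2 and 16.7 FPKM in libraries 1 to 5, with a mean of 15.1 ± 2.76 (SD, n = 5). Library 1 was the high one and library 4 the low one, 1.65-fold apart. Mfn2 exceeded Opa1 by 8.84-fold to 11.6-fold within a library. That ratio had a log2 SD of 0.15, against 0.26 for Opa1 itself, and both genes were lowest in library 4.

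In fission, Dnm1l (ENSMUSG00000022789, chromosome 16, 16312230 to 16358959, minus strand), the GTPase that constricts mitochondria, was at 19.4, 19.7, 21.1, 12.7 and 19.3 FPKM, with a mean of 18.4 ± 3.29 (SD, n = 5). Library 4 stood alone at the low end and the other 4 libraries were close together. Fis1 (ENSMUSG00000019054, chromosome 5, 136953275 to 136966234, plus strand), a tail-anchored protein of the outer membrane, was at 82.9, 86.4, 79.6, 95.2 and 79.0 FPKM, with a mean of 84.6 ± 6.62. Here library 4 was the high one. Mff (ENSMUSG00000026150, chromosome 1, 82724890 to 82752394, plus strand), an adaptor that recruits Dnm1l, was at 15.8, 14.1, 11.9, 12.9 and 15.2 FPKM, with a mean of 14.0 ± 1.59. Library 3 was lowest and library 1 highest for Mff, with no library set apart.

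Between the outer membrane proteins of fission, Fis1 lay above Mff in all 5 libraries, with a log2 ratio of Mff to Fis1 of -2.52 ± 0.21. Dnm1l lay below Fis1 in all 5 libraries by a log2 ratio of -2.16 ± 0.38, which was -2.82 in library 4 against -2.08 to -1.87 in the others. Dnm1l and Mff were not separated at the deposited FPKM, with a log2 ratio of 0.36 ± 0.29 and the order reversed in library 4 (p = 0.125, exact two-sided sign-flip permutation test; 0.150 after adjustment over 18 pairs). At the annotated exon lengths, which give Mff a lower level, this ratio was 1.21 ± 0.28 and above 0 in all 5 libraries (p = 0.0625, exact sign-flip permutation test). Mfn2, a gene of fusion, exceeded Dnm1l, the GTPase of fission, by 7.12-fold to 10.2-fold within a library.

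In mitophagy, Pink1 (ENSMUSG00000028756, chromosome 4, 138313409 to 138326307, minus strand), the kinase that marks depolarised mitochondria, was at 440.4, 479, 356, 517 and 396 FPKM in libraries 1 to 5. Library 4 was highest and library 3 lowest, 1.45-fold apart, and both held under median-of-ratios scaling.

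Bnip3 (ENSMUSG00000078566, chromosome 7, 138890836 to 138909519, minus strand), a mitophagy receptor known for its induction by low oxygen and by FoxO factors in muscle, was at 76.5, 98.3, 62.4, 74.7 and 67.1 FPKM, with a mean of 75.8 ± 13.8 (SD, n = 5). Library 2 was the high one, and without it the coefficient of variation (CV, SD over mean) of Bnip3 was 9.42% in place of 18.2%. Its paralog Bnip3l (Nix; ENSMUSG00000022051, chromosome 14, 66985239 to 67008877, minus strand), which clears mitochondria from maturing red cells, was at 21.2, 20.9, 19.1, 20.3 and 19.9 FPKM, with a mean of 20.3 ± 0.814. These FPKM values had a CV of 4.02%, which was 8.82% under median-of-ratios scaling. Bnip3 exceeded Bnip3l by 3.26-fold to 4.71-fold, a log2 ratio of 1.84 ± 0.21, and in all 5 libraries.

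Fundc1 (ENSMUSG00000025040, chromosome X, 17556564 to 17572325, minus strand), a receptor of mitophagy that is known to be regulated by phosphorylation, was at 13.3, 10.1, 11.3, 11.1 and 12.5 FPKM, with a mean of 11.7 ± 1.25 (SD, n = 5). Library 1 was highest and library 2 lowest, the reverse of Bnip3 for library 2. Among the 3 receptors the order was Bnip3, Bnip3l, Fundc1 in every library, and Bnip3 exceeded Fundc1 by 5.37-fold to 9.71-fold, most in library 2. Pink1 in turn exceeded Bnip3 by 4.88-fold to 6.92-fold.

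Of the 18 within-library ratios, 14 had the same direction in all 5 libraries, each with p = 0.0625 by the exact sign-flip permutation test, so none could pass 0.05. The other 4 were Dnm1l and Mff, Fis1 and Bnip3 (0.17 ± 0.22), Bnip3l and Dnm1l (0.15 ± 0.29), and Opa1 and Mff (0.10 ± 0.17, SD, n = 5). Levels of different genes rest on the gene lengths that the authors used, which were 2375 bases for Pink1 but 3918 for Mff, where the GENCODE M21 annotation has 2673 and 9757 exon bases. At the annotated exon lengths 17 of the 18 ratios had the same direction in all 5 libraries, all but that of Bnip3l to Dnm1l, and 2 pairs changed direction. Fis1 then lay below Bnip3 by -0.31 ± 0.22 and Mff below Fundc1 by -0.71 ± 0.13, with Mff at 5.62 FPKM on average. The ratio of Opa1 to Mff was then 0.96 ± 0.17, above 0 in all 5 libraries.

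**Figure D2:**
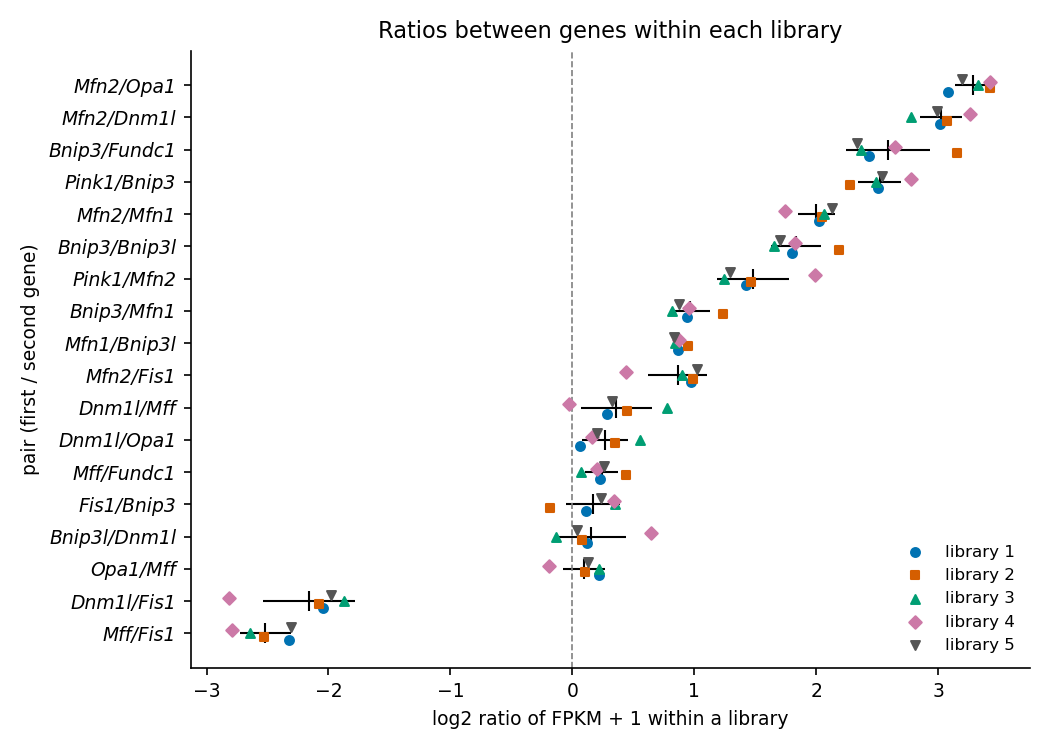
Log2 ratio of FPKM + 1 between 2 genes within a library, for 18 pairs, with 1 point per library, a black tick at the mean and a line for 1 SD on each side (n = 5). The points of 14 pairs lie on 1 side of 0, and those of Fis1/Bnip3, Bnip3l/Dnm1l, Opa1/Mff and Dnm1l/Mff lie on both.

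The members varied between libraries by small amounts. Their CV ran from 4.02% for Bnip3l to 18.3% for Opa1, with a median of 11.05% against 16.3% over all 10710 genes tested, and 7 of 10 lay below the latter. Above it were Opa1, Bnip3 (18.2%) and Dnm1l (17.9%). This comparison of CVs was not matched for level. The genes tested reach down to a mean of 1 FPKM, while the lowest mean of a member was 11.7 FPKM. Under median-of-ratios scaling the medians were 14.0% and 15.6%, so the gap between the members and all genes was smaller there. The order of the members changed as well under that scaling. Pink1 then had the highest CV at 19.9%, ahead of Opa1 (16.9%) and Bnip3 (16.7%), Dnm1l lay below the median of all genes at 13.7%, and the lowest CV was that of Mfn2 at 8.36%. No member passed the limma test of spread against the abundance trend after Benjamini-Hochberg adjustment, and none had an unadjusted p below 0.05. Of all genes tested, 0% passed after adjustment and 5.75% had an unadjusted p below 0.05. The smallest adjusted p of any gene was 0.640 in this limma test. Even the regenerating fibre marker Mymk, at 0 to 22.1 FPKM with a ratio of variance to trend of 71.5, did not pass. On these 5 libraries the test called no gene, with its trend and F distribution fitted to these same genes. A gene not passing thus says little about its spread. Among the members the ratio of variance to trend was highest for Dnm1l, at 2.29, followed by Opa1 at 1.97 and Bnip3 at 1.74. The median of this ratio, which takes level into account, was 0.70 over the members and 0.97 over all genes tested.

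Counting error was smaller than this spread for most members. In a chi-square test of the reads over the 5 libraries, 9 of 10 members varied by more than counting error after Benjamini-Hochberg adjustment, against 87.9% of all genes tested, so the share of members is near the background. Bnip3l was the exception (adjusted p = 0.0928 in the chi-square test), with a CV of 4.02% between libraries and 2.69% from counting. Under median-of-ratios scaling Bnip3l passed too (adjusted p = 7.6e-08 in the chi-square test), which made 10 of 10 members against 84.9% of all genes tested. Pink1 had the best precision, with a CV of 0.687% from counting against 14.7% between libraries, and Fundc1 the poorest, with 4.59% against 10.7%. Without library 4, Dnm1l (adjusted p = 0.0732) and Fis1 (adjusted p = 0.0548) also lost the chi-square call, which left 7 of 10 members against 79.1% of all genes tested.

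**Figure D3:**
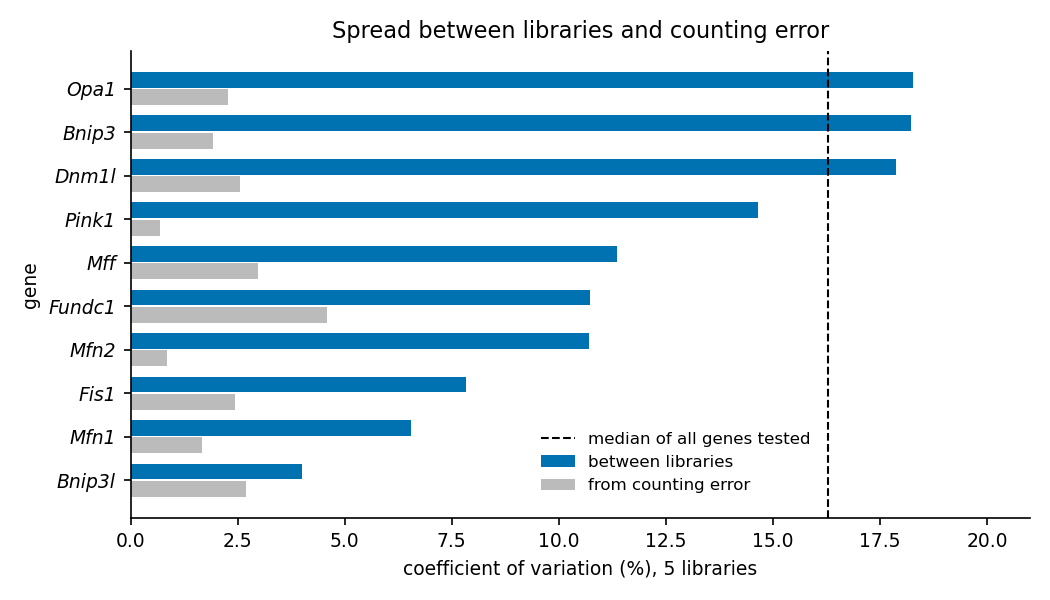
Coefficient of variation of the deposited FPKM in percent of each of the 10 genes over 5 libraries (blue bars) beside that expected from counting error (grey bars), with a dashed line at the median CV of all genes tested. Opa1, Bnip3 and Dnm1l reach past the dashed line at 16.3%, and Bnip3l has the shortest blue bar at 4.02%.

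In library 4, Dnm1l, Opa1 and Mfn2 were low where Pink1 and Fis1 were high. On the log2(FPKM + 1) scale, relative to the mean of each gene, Dnm1l lay at -0.49, Opa1 at -0.39 and Mfn2 at -0.25 in library 4, while Pink1 lay at 0.25 and Fis1 at 0.17. The other members lay between -0.10 and 0.00 there. Without library 4 the CV of Dnm1l was 4.09% in place of 17.9%, that of Opa1 11.9% in place of 18.3%, that of Mfn2 5.90% in place of 10.7% and that of Fis1 4.16% in place of 7.83%. Dnm1l and Opa1 were lowest in library 4 under median-of-ratios scaling too, at -0.34 and -0.24, while Mfn2 was then lowest in library 3. Pink1 and Fis1 were highest in library 4 under both scalings. The other mitofusin, Mfn1, was not low there, at 0.00 for FPKM and 0.16 under median-of-ratios scaling.

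In library 4 the deviation of a gene moved with its length over the whole table. With the genes tested split by length into 4 classes of near equal size, the median deviation there was 0.04 for the shortest class, at up to 1826 bases, and -0.06, -0.14 and -0.19 for the next 3 classes. Opa1 (6230 bases) belongs to the longest class, Mfn2 (4341) and Dnm1l (4068) to the third, Pink1 (2375) to the second and Fis1 (948) to the shortest. Each of these 5 genes lay farther from 0 in library 4 than the median of its own class, Pink1 in the opposite direction to it. Mfn1, at 4562 bases, lay above the median of its class. The part of length in these deviations was not tested.

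**Figure D4:**
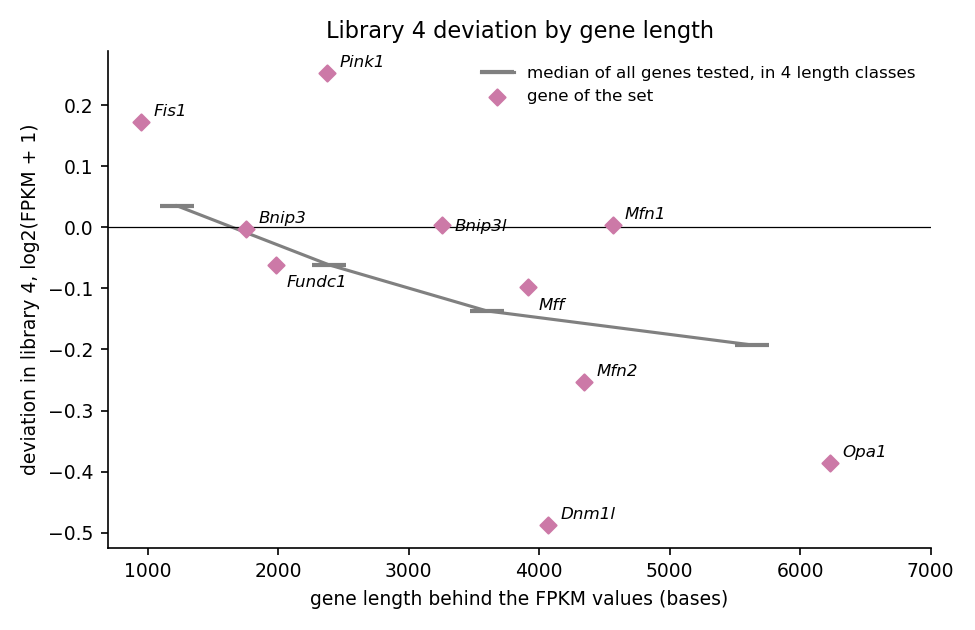
Deviation of each of the 10 genes in library 4 from its own mean on the log2(FPKM + 1) scale, against the gene length behind the FPKM values in bases, with the median of all genes tested in each of 4 length classes (grey). The grey line falls from 0.04 to -0.19, Dnm1l and Opa1 lie below it at -0.49 and -0.39, and Pink1 and Fis1 lie above it at 0.25 and 0.17.

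Library 3 held the lowest level of 5 of 10 members, namely Mfn1, Mff, Pink1, Bnip3 and Bnip3l, where 17.1% of all genes tested had theirs. Under median-of-ratios scaling 7 of 10 members were lowest in library 3, against 28.6% of all genes. Dnm1l went the other way for FPKM as deposited, with its highest level in library 3 at 21.1 FPKM. Under median-of-ratios scaling Dnm1l was highest in library 5. For FPKM as deposited, the lowest level fell in libraries 1, 2, 4 and 5 for 0, 1, 3 and 1 of the members, against 10.2%, 9.8%, 38% and 24.9% of all genes. The highest level fell in libraries 1 to 5 for 4, 3, 1, 2 and 0 of the members, against 21.2%, 23.2%, 37.4%, 10.5% and 7.68% of all genes. The members were thus seldom highest in library 3, where all genes were so most often, but the difference was not tested. Under median-of-ratios scaling the highest level fell in libraries 1 to 5 for 0, 1, 0, 4 and 5 members (13.1%, 13.6%, 27%, 27.5% and 18.8% of all genes). The lowest then fell in libraries 1, 2, 4 and 5 for 0, 1, 2 and 0 members (18.6%, 20.4%, 18.6% and 13.8%).

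**Figure D5:**
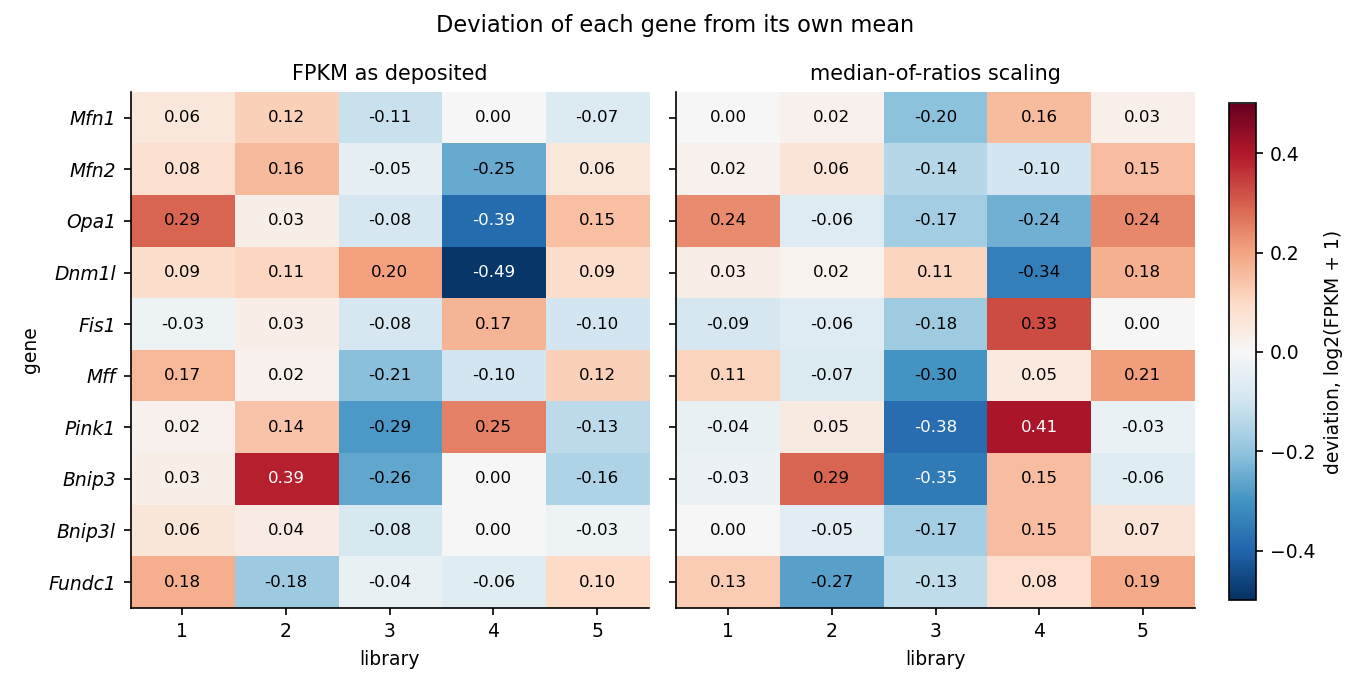
Deviation of each gene from its own mean over the 5 libraries on the log2(FPKM + 1) scale, for FPKM as deposited (left) and after median-of-ratios scaling (right), red above and blue below the mean. Dnm1l and Opa1 are blue in library 4 in both panels (-0.49 and -0.39, -0.34 and -0.24), Pink1 is red there, and Bnip3 is red in library 2 (0.39 and 0.29).

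Levels of mitochondrial genes moved with some of these values. A list of 13 nuclear genes of mitochondrial proteins, led by Atp5a1 (916 ± 91.7 FPKM), the porin gene Vdac1 (724 ± 78.6) and Cox4i1 (657 ± 91.7, SD, n = 5), summed to 5305 FPKM in library 2 and 4026 in library 3, with 4443 to 4700 in the others. Bnip3 had its highest and lowest level in those same libraries 2 and 3. Taken relative to the mean of these 13 genes, the log2 SD of Bnip3 was 0.14 in place of 0.25, that of Mfn1 0.04 in place of 0.09 and that of Pink1 0.16 in place of 0.21. It was smaller for 6 of 10 members and larger for Dnm1l (0.30 in place of 0.28), Fis1, Bnip3l and Fundc1. The SDs replaced are those of FPKM as deposited, and the spread of a gene alone changes with scaling. Under median-of-ratios scaling the CV of Fis1 rose from 7.83% to 14.5%, and that of Mfn2 fell from 10.7% to 8.36%. The count of members was not made under that scaling. No share over all genes tested was computed, so the count does not set the members apart. The 13 protein-coding genes of the mitochondrial genome, led by mt-Co1, mt-Nd1 and mt-Cytb, followed another order. Their sum had 78536 FPKM in library 2 and 62012 in library 1 as the extremes, and rests on the most abundant of them. Counted by gene for FPKM, 8 were highest in library 3 and 5 in library 2, while 9 were lowest in library 1 and 4 in library 4. In bulk tissue, fewer cells of a type and less RNA per cell cannot be told apart.

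Genes for factors known to act on the sites searched in the promoters, and for other regulators, were measured beside the members. Esrra, which encodes the receptor ERRα, was at 68.8 ± 7.68 FPKM, the hypoxia-inducible factor gene Epas1 at 48.9 ± 8.20 and Tfeb, a regulator of lysosomal genes, at 43.5 ± 5.83 (SD, n = 5). Hif1a was at 3.89 ± 0.810 FPKM and Nrf1 at 3.08 ± 0.107. Esrra, like Bnip3, had its highest level in library 2 under both scalings, at 81.0 FPKM, while Epas1 had it there for FPKM (58.3) and in library 5 under median-of-ratios scaling. These were 2 of the 9 regulators listed, where 23.2% of all genes tested were highest in library 2 for FPKM. The FoxO genes Foxo1 (4.22 FPKM) and Foxo3 (5.02) were highest in library 5 under both scalings, unlike Bnip3. Of 7 other genes induced by low oxygen, 6 passed the filter. The 3 with the highest means did not follow Bnip3: Ldha (1707 FPKM) and Pgk1 (441) were lowest in library 2, and Vegfa was highest in library 1 at 92.3. Of the others, Egln3 (54.9) and Pdk1 (14.3) were highest in library 2, as Bnip3 was, and Slc2a1 (8.93) was highest in library 3, where Bnip3 was lowest.

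The other genes of the machinery covered 67 genes in 5 lists, of which 63 passed the filter. Of these, 58 (92.1%) varied by more than counting error in the chi-square test, near the 87.9% of all genes tested. In the limma test of spread 0 passed, as for all genes, and 0 had an unadjusted p below 0.05, against 5.75% of all genes. The median CV was 11.7%, against 16.3% over all genes tested, again without matching for level. Among partners of fusion, the inner membrane scaffold genes Phb (85.6 ± 7.54 FPKM) and Phb2 (40.5 ± 7.16) and Mtch2 (34.6 ± 1.79, SD, n = 5) had the highest means. Oma1 and Yme1l1, the proteases that cut Opa1, were lower, with 10.2 to 12.9 and 10.0 to 14.4 FPKM, and both were lowest in library 4, as Opa1 was, though Oma1 was lowest in library 1 under median-of-ratios scaling. Pld6 was listed at 0.0616 to 0.0898 FPKM.

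Among partners of fission, Mief2 (MiD49, 53.4 ± 8.39 FPKM), an adaptor of Dnm1l, Mtfp1 (50.3 ± 8.09) and Mtfr1l (30.2 ± 1.41, SD, n = 5) had the highest means. The fission list was lowest in library 4 for 8 of its 14 tested genes and the fusion list for 7 of 14, where 38% of all genes tested were lowest. Under median-of-ratios scaling these counts were 4 and 3, against 18.6% of all genes. Mief1 (MiD51) was at 5.45 ± 0.800 FPKM, below Mief2 in all 5 libraries. In the list of the Pink1 pathway, Vcp, which extracts proteins from the outer membrane, was at 78.7 ± 14.3 FPKM, the translocase subunit Tomm7, which holds Pink1 at the surface, at 34.4 ± 4.29, and the deubiquitinase Usp15 at 31.6 ± 3.60.

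Adaptors and LC3 proteins were abundant beside the receptors. Nipsnap2 was at 296 ± 49.1 FPKM, the adaptor Sqstm1 (p62) at 198 ± 28.5 and Map1lc3a at 182 ± 11.1 (SD, n = 5). Map1lc3b was highest in library 4 at 59.9 FPKM and Gabarapl1 too at 39.0, the library in which Pink1 was highest. Of the 14 tested genes of this list, 6 were highest in library 4 for FPKM, against 10.5% of all genes tested. Libraries 1, 2, 3 and 5 were highest for 2, 2, 3 and 1 of them, with Nipsnap2 in library 2 and Sqstm1 in library 3. Under median-of-ratios scaling 9 were highest in library 4, against 27.5% of all genes. The difference was not tested. Fkbp8 and Bcl2l13, 2 further receptors of the outer membrane, were at 61.2 ± 4.96 and 10.1 ± 1.15 FPKM. Calcoco2 was listed at 0 in all 5 libraries. In the list of cristae and transport genes, Chchd3 (191 ± 9.86 FPKM), Samm50 (186 ± 14.0) and Immt (88.0 ± 4.88) had the highest means, and the median CV of the 10 genes was 6.65%.

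The genes whose deviations lay closest to those of the 3 members with the largest log2 SD for FPKM were found by root mean square difference over the 5 libraries, among 3812 other genes at 10 FPKM or more. Nearest to Dnm1l were Nid1, Ppp2r3a and Prkacb, at 0.04, 0.05 and 0.06. Nearest to Opa1 were Satb1, Ghr and March6, at 0.04, 0.04 and 0.05. Nearest to Bnip3 were Hint2, Ndufb3 and Hadha, at 0.03, 0.04 and 0.04, of which Ndufb3 and Hadha encode proteins of the respiratory chain and of fatty acid oxidation. Among the members themselves the closest pair was Mfn1 and Bnip3l (0.04) and the farthest Dnm1l and Pink1 (0.41). With 5 libraries, such likeness is a description of these libraries.

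Markers of other cells moved with libraries 2 and 3. Macrophage markers summed to 356 FPKM in library 3 against 91.6 to 121 elsewhere, erythroid markers to 1028 against 328 to 500.4, adipocyte markers to 77.4 against 10.4 to 29.7 and regenerating fibre markers to 84.5 against 17.4 to 25.1. All 8 macrophage, all 4 tested erythroid and all 4 adipocyte markers were highest there. Bnip3l, which maturing red cells express strongly, was lowest in library 3 at 19.1 FPKM, the library with the highest erythroid markers, and Pink1 and Bnip3 were lowest there too. All 7 slow fibre markers were highest in library 2 and all 7 fast fibre markers lowest, the library in which Bnip3 was highest under both scalings and Mfn1 and Mfn2 for FPKM only. The part of cell makeup in the members' values was not tested. Without libraries 2 and 3 the median CV of the members was 10.0% (13.1% over all genes tested), and 9 of 10 varied by more than counting error, against 68.2% of all genes tested (7304 of 10710).

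Annotated neighbours limit 4 of the members, since no source used here gives the strand setting of the counting. Dnm1l, Mff and Bnip3 share 243, 195 and 504 exon bases with a gene annotated on the opposite strand. That gene was listed at 0 for Mff and was absent from the expression table for Dnm1l and Bnip3. Pink1 shares exon bases with 2 microRNA genes on its own strand, which were absent from the expression table too. The pseudogene Bnip3l-ps was listed at 0.0327 to 0.254 FPKM.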

How the data were processed

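Messenger RNA of 5 muscle samples was measured by RNA sequencing. About 20 mg of muscle was extracted with Trizol and poly-T beads were used to select messenger RNA, per the labels' protocols. Build mm10 and the tools HTSeq 0.6.1, STAR 2.5, TopHat, edgeR and DESeq2 appear in the submitters' processing notes, with no role or order. The deposited table gives FPKM values that the authors computed from reads, gene length and library total. Those totals and the reads were recovered from the steps of the values, taking the annotated exon length or else the shortest length at which all libraries gave whole reads within 0.001. Whole reads were found for 100% of the genes above 0 (20840 of 20840), with 4544 genes whole at the annotated length, and the reads summed to 99.5% ± 0.0164 of the totals (SD, n = 5). The criterion is easily met by a gene that is above 0 in few libraries. No count model was fitted. Intervals from counts cover counting error only.

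Symbols were matched for 34490 of 35275 identifiers with GENCODE M21 of GRCm38, the assembly of mm10. Spread was tested with limma 3.58.1 in R 4.3.3 on log2(FPKM + 1) for genes whose mean reached 1 FPKM (variance over abundance trend, F distribution, one-sided). Reads were tested by chi-square with 4 degrees of freedom, and ratios by sign flips (exact permutation test, two-sided, 32 patterns), all with Benjamini-Hochberg adjustment and a threshold of 0.05. Both tests over all genes were also run on simulated data, and no outcome of those runs is given here. How either test behaves at the spread of these libraries was not tested. Other steps ran in Python 3.11.15 with pandas 2.3.3, scipy 1.17.1, numpy 2.4.6 and matplotlib 3.10.9. The rule for named genes took all members, the 3 most abundant genes of each pathway list, marker genes, and the 3 nearest genes of the 3 members with the largest log2 SD. Other list genes given with values, such as Oma1, Mief1 and Map1lc3b, were named after their values were seen. Members and lists were chosen with earlier results of these data known. Alternatives covered the pseudocount, filter, scaling, trend and each library left out. Those using annotated exon length, or leaving out libraries 2 and 3 together, were chosen after seeing the data.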

Additional observations from a re-analysis of the deposited data

Results flagged for a closer look

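Of 55 sets of 5 values checked (the members, their ratios and the 3 most abundant genes of each pathway list), 8 had 1 library farther from the rest than Dixon's 95% critical value allows, where chance gives about 1 in 20 sets. Library 4 was the outlying library in 6 of these. Dnm1l was at 12.7 FPKM there, with the next library at 19.3. The log2 ratio of Mfn2 to Mfn1 was 1.74 against 2.03 for the next library, that of Mfn2 to Fis1 was 0.44 against 0.90, that of Dnm1l to Fis1 was -2.82 against -2.08, and that of Opa1 to Mff was -0.19 against 0.10. The deubiquitinase gene Usp15 was at 25.3 FPKM against 32.4. In library 3, Phb was at 98.9 FPKM against 84.7 for the next library, and Vcp at 103.6 against 77.6. The levels were checked for FPKM as deposited only, so whether they stand out under median-of-ratios scaling was not tested. Under that scaling Phb was highest in library 4 and no longer in library 3. Ratios that share Dnm1l, Mfn2 or Fis1 are not independent of each other.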

How the results depend on the processing

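No paired analysis was possible because the samples form 1 group. The count of genes past the limma test of spread was 0 under each alternative run on 5 libraries and 0 to 4 with 1 library left out, the 4 being without library 3, and no member passed in any of them. With genes at 10 FPKM or more, fewer genes were tested and 3640 varied by more than counting error in place of 9410. The number of members that did so was 7 to 9 with 1 library left out, 7 being without library 4, and 10 under median-of-ratios scaling, where Bnip3l passed. Of 144 alternative values of the ratios, 142 kept their direction and 2 reversed, both at annotated exon lengths (Fis1/Bnip3 at -0.31 and Mff/Fundc1 at -0.71), by the change of length itself. The median CV of the members was 9.70% to 12.2% with 1 library left out, 12.5% after rescaling to TPM and 14.0% under median-of-ratios scaling. Depth limits Fundc1 most, with 372 reads in library 2. With 5 samples and no control group, the sign-flip test cannot go below 0.0625.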

Other observations

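The values of 3 other genes of the machinery are given here, chosen after they were seen. Gdap1, a fission factor of the outer membrane best known from nerve, was at 3.36, 1.82, 1.12, 2.14 and 3.03 FPKM in libraries 1 to 5, a CV of 39.6%. Library 3 was lowest and library 1 highest. Ulk1, the kinase that starts autophagy and acts on Fundc1, was at 19.0, 19.3, 11.3, 17.0 and 13.6 FPKM, a CV of 21.7%, with library 3 again lowest. Trak1, an adaptor that links mitochondria to motor proteins, was at 58.9, 61.8, 55.6, 38.6 and 55.4 FPKM, a CV of 16.7%, with library 4 alone at the low end, as for Dnm1l. Each varied by more than counting error in the chi-square test, as most genes tested did. None passed the limma test of spread after adjustment, which no gene tested passed.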
